A study of Penicillium oxalicum with 15 samples.

Results

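A set of 180 genes of the filamentous fungus Penicillium oxalicum was higher in the strain gClrBID than in the reference strain M12 when both grew on glucose, and was not raised to that extent by cellulose in M12 or by gClrBID on cellulose. The genes were chosen from measured values among 8765 tested genes of 9976 in the table. Levels are in FPKM, fragments scaled to gene length and to the library's fragment total, and the tested genes are those with 1 FPKM or more in 3 or more of the 15 libraries. Differences were taken between group means of log2(FPKM + 1). A member had a difference of at least 1 for gClrBID minus M12 on glucose, and of under 1 for cellulose minus glucose in M12 and for gClrBID minus M12 on cellulose. Of the 429 genes that met the first condition, 180 met all conditions, and most others rose by 1 or more on cellulose in M12. All 180 members passed the filter on low values by this choice.

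RNA came from mycelia that were grown for 22 h in Vogel's medium with 2% glucose and then moved for 4 h to the same medium with 2% glucose or 2% cellulose, at 30 °C and 200 rpm. M12 and gClrBID were measured on both carbon sources. gClrBID is labelled as overexpressing a mutant form of ClrB, called internal, and the labels name neither the promoter nor the change in the protein. A strain with a deletion of creA was measured on cellulose, and its response on glucose was not analysed here. Fewer cells that express a gene and less RNA per cell cannot be told apart in bulk RNA. Each of the 5 groups held 3 libraries, called biological triplicates in the series text, and nothing further is said of the cultures or of the number of transformants. P-values therefore measure the spread between these libraries.

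ClrB is a zinc cluster transcription factor that activates genes for cellulose-degrading enzymes when cellulose is present. CreA is a zinc finger repressor that keeps genes for the use of other carbon sources low while glucose is at hand. In filamentous fungi both act on the genes of secreted cellulases and of sugar transporters, and cellulase genes are the best known targets of ClrB. The members are, by the rule, genes without a rise of 1 or more on cellulose in M12 on the log2(FPKM + 1) scale. By ratio some low members rose more than that. PDE_02109 went from 1.60 FPKM on glucose to 4.19 FPKM on cellulose in M12, and PDE_03469 from 0.773 to 2.20 FPKM.

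None of the members has a name in the sources used here, and no identifier of the table matched the reference gene list, which is of another strain. Members are therefore given by their locus tag, and no role is given for them. Names of non-members below (clrB, creA, cel6A and cel7B) come from prior knowledge of the species, not from the files, and of these only the tags of clrB and creA were checked by their levels. Of 16 tags of known cellulolytic and regulatory genes, clrB, creA and the main cellulases among them, 0 were members. The rule settled this, since all 16 rose on cellulose in M12, the least by 1.65 on the log2 scale. The tag of clrB stood at 10.1 ± 0.345 FPKM in M12 and 469 ± 16.4 FPKM in gClrBID on glucose (SD, n = 3 each). On cellulose the tag of clrB was lower in gClrBID, at 73.7 ± 16.5 FPKM against 153 ± 6.43 FPKM in M12 (SD, n = 3 each). That of creA stood at 434 ± 33.9 FPKM in M12 and 0.0530 ± 0.0524 FPKM in the deletion on cellulose (SD, n = 3 each).

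The libraries held 10129672 to 18361206 fragments, worked back from the steps of the FPKM values. Pearson's r between replicates lay between 0.992 and 0.997, across tested genes, which are not independent replicates. Over all tested genes the median log2 difference was -0.26 for gClrBID minus M12 on glucose. Since the members had to rise against a table whose median fell, the scaling between libraries bears on their number: after median-of-ratios scaling 280 genes met the rule, 179 of the 180 members among them.

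**Figure D1:**
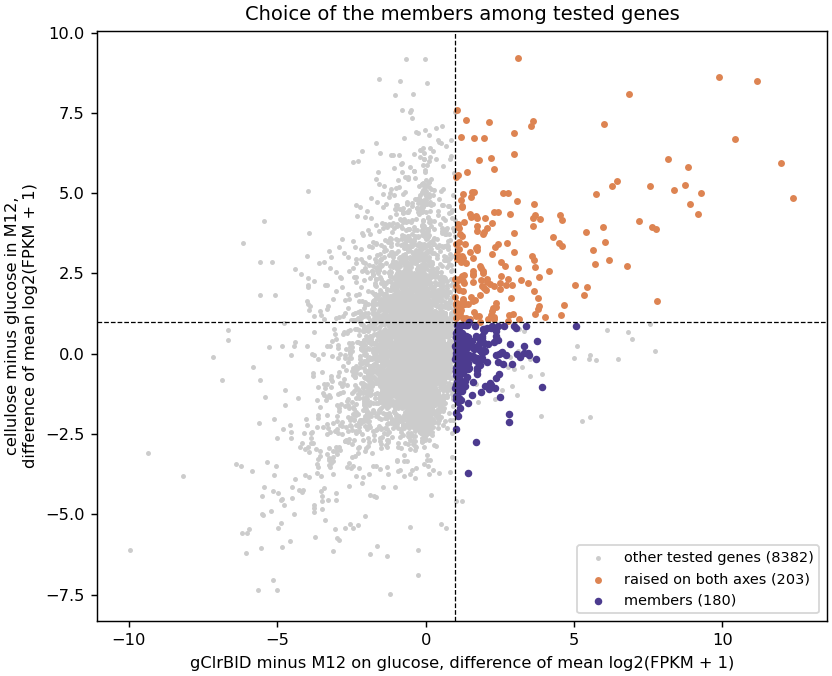
Each point is a tested gene, with the difference of mean log2(FPKM + 1) between gClrBID and M12 on glucose on the x axis and between cellulose and glucose in M12 on the y axis. The dashed lines mark the thresholds of 1, the 180 members are purple and genes raised on both axes are orange. Grey points to the right of the vertical line and below the horizontal one were raised by 1 or more in gClrBID on cellulose as well.

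The members rose on glucose by 1.43 on the log2 scale at the median, with quartiles of 1.17 and 1.98 and a highest value of 5.07. This difference chose them and is given as a description, with no test. In 35 members it lay between 1.5 and 2 and in 44 at 2 or more. At a threshold of 1 or more the share over all tested genes was 4.89%. The libraries of gClrBID and M12 on glucose did not overlap in any of the 180 members, and gClrBID libraries lay above M12 libraries in 18.5% of all tested genes. Just inside the threshold on glucose stood PDE_04187 (1.0003) and PDE_04459 (1.0004), and just outside it PDE_01495 (0.998) and PDE_02309 (0.995). For cellulose in M12 the nearest members were PDE_02109 (0.99) and PDE_07111 (0.91), and the nearest genes outside were PDE_05883 (1.0027) and PDE_02418 (1.03). For gClrBID on cellulose they were PDE_02234 (0.995) and PDE_01236 (0.98) inside, and PDE_08980 (1.0001) and PDE_00196 (1.019) outside.

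Levels of the members spanned several orders of magnitude. The median of their mean FPKM was 17.4 in M12 and 53.8 in gClrBID on glucose. On cellulose it was 13.9 in M12, 17.2 in gClrBID and 14.6 in the creA deletion. On glucose 30 members lay under 1 FPKM in M12 and 0 in gClrBID, while 22 reached 100 FPKM or more in M12 and 65 in gClrBID. Together the members held 1.18 ± 0.00947% of the fragments in M12 and 4.03 ± 0.0367% in gClrBID on glucose. On cellulose their share was 0.979 ± 0.00287% in M12, 1.13 ± 0.00322% in gClrBID and 1.13 ± 0.0188% in the creA deletion (SD, n = 3 each). The mean was highest in gClrBID on glucose for 170 members, in the creA deletion for 7 and in gClrBID on cellulose for 3. The rule largely sets this count, so nothing is read from it. On the log2(FPKM + 1) scale it keeps M12 on both carbon sources below gClrBID on glucose, and it bounds gClrBID on cellulose.

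**Figure D2:**
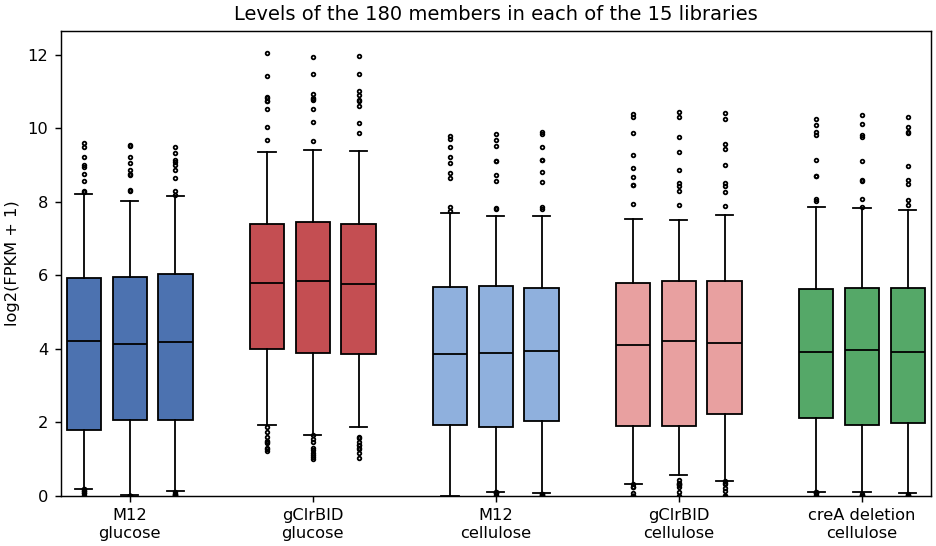
Boxes give the quartiles and the median of log2(FPKM + 1) over the 180 members in each of the 15 libraries, whiskers reach from the 5th to the 95th percentile and points are members beyond them. The medians of the 3 gClrBID libraries on glucose stand above those of the 12 others. The rule sets the group mean of each member in gClrBID on glucose above those of M12 on both carbon sources. It also bounds gClrBID on cellulose to under 1 above M12 on cellulose. The creA deletion is not bounded by it.

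On the log2(FPKM + 1) scale the member with the largest rise was PDE_02532. It stood at 1.27, 0.983 and 1.21 FPKM in M12 and at 70.5, 70.1 and 72.7 FPKM in gClrBID on glucose, a ratio of means of 61.7. By that ratio PDE_09198, PDE_06788 and PDE_01944 rose further from M12 levels near 0, PDE_09198 from 0, 2 and 2 fragments to 875, 542 and 794 fragments. On cellulose PDE_02532 stood at 2.83, 2.76 and 3.19 FPKM in M12, at 2.24, 2.65 and 1.78 in gClrBID and at 2.45, 2.14 and 1.99 in the creA deletion. The 12 libraries of PDE_02532 other than those of gClrBID on glucose thus stayed below 4 FPKM. The tag before it, PDE_02531, was also a member and was likewise highest in gClrBID on glucose, with 40.3, 39.7 and 45.3 FPKM in M12 and 566, 564 and 572 FPKM in gClrBID on glucose. On cellulose the libraries of PDE_02531 lay between 35.1 and 41.9 FPKM in the 3 strains.

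Next on the log2 scale was PDE_02826, which went from 10.2, 10.2 and 10.4 FPKM in M12 to 166, 184 and 164 FPKM in gClrBID on glucose. It was lower on cellulose than on glucose in both strains, at 4.48 ± 0.519 FPKM in M12 and 3.85 ± 0.746 FPKM in gClrBID (SD, n = 3 each). PDE_09192 went from 0.307 ± 0.0953 to 16.6 ± 1.83 FPKM, PDE_04069 from 0.683 ± 0.456 to 17.8 ± 3.61 FPKM and PDE_04733 from 0.876 ± 0.334 to 18.2 ± 1.48 FPKM on glucose (SD, n = 3 each). PDE_05700 went from 3.01 ± 0.614 to 39.1 ± 3.98 FPKM, and on cellulose its means lay between 3.72 and 4.62 FPKM.

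Some members were all but silent in every other group. PDE_06788 had 1, 0 and 0 fragments in M12 on glucose against 10.2, 9.95 and 9.87 FPKM in gClrBID, and on cellulose no library of the 3 strains passed 0.882 FPKM. PDE_00750 had 0 fragments in all M12 libraries, on either carbon source, and 104, 69 and 127 fragments in gClrBID on glucose. Against a floor of 3 fragments over the 3 M12 glucose libraries it was at least 137-fold higher, and it stood at 0.583 ± 0.0903 FPKM in gClrBID on cellulose (SD, n = 3). A second member at 0 in M12 on glucose, PDE_09127, rested on 5, 2 and 3 fragments in gClrBID.

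The most abundant member in gClrBID on glucose was PDE_03711, while PDE_05694 had the highest mean in M12 on either carbon source. On glucose PDE_03711 stood at 599, 601 and 545 FPKM in M12 and at 4223, 3958 and 4044 FPKM in gClrBID. On cellulose it was at 157 ± 7.95 FPKM in M12 and 177 ± 6.86 FPKM in gClrBID (SD, n = 3 each), so its high level in gClrBID was seen on glucose alone among these groups. PDE_05694 was next in gClrBID on glucose, with 722 ± 7.87 FPKM in M12 and 2816 ± 37.3 FPKM in gClrBID on glucose, and it stayed between 875 and 1333 FPKM in the libraries on cellulose. PDE_06215 rose from 304 ± 15.0 to 1889 ± 146 FPKM (SD, n = 3 each) and was higher on cellulose than on glucose in M12 by 0.85 on the log2 scale, short of the threshold.

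Within M12 the members divided into 155 whose difference between cellulose and glucose lay between -1 and 1, where 59.1% of all tested genes lay, and 25 that fell by 1 or more, as 18.9% of all tested genes did. The rule leaves these as the only classes. The shares over all tested genes also count genes that rose by 1 or more on cellulose in M12, so they are not like for like. The largest fall on the log2(FPKM + 1) scale was that of PDE_01971, from 770.3, 747 and 643 FPKM on glucose to 58.2, 57.9 and 47.0 FPKM on cellulose in M12. By ratio PDE_02681 fell further, from 108, 83 and 104 fragments to 0, 1 and 2 fragments. So did PDE_02680, which is not among the 25, on only 3, 7 and 6 fragments against 0, 1 and 0. In gClrBID PDE_01971 stood at 1853, 1966 and 1924 FPKM on glucose and 22.4, 23.8 and 26.1 FPKM on cellulose. The 25 members of the second class had a median level of 34.0 FPKM in M12 on glucose against 13.1 FPKM for the 155 others. The classes were cut on these same M12 glucose values, and a gene under 1 FPKM there cannot fall by 1 on this scale. Nothing is therefore read from these medians.

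On cellulose the rule bounds gClrBID minus M12 on the upper side, on the log2(FPKM + 1) scale. Low members could still differ by a large ratio. PDE_00750 had 0 fragments in each M12 library and 8, 10 and 9 in gClrBID. The median difference over the members was 0.27 on the log2 scale against -0.02 over all tested genes. Of the members, 119 lay between -0.5 and 0.5 and 49 at 0.5 or more. Differences under 0 were seen in 45. A value of -1 or less, not bounded by the rule, was seen in 4 members (2.22%), PDE_01971, PDE_02145, PDE_03067 and PDE_03518, and in 5.73% of all tested genes. Within gClrBID the median member was lower on cellulose than on glucose by a log2 difference of -1.50, and 131 members (72.8%) fell by 1 or more against 13.5% of all tested genes. Both differences are made of values that the rule used, and nothing is read from them.

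**Figure D3:**
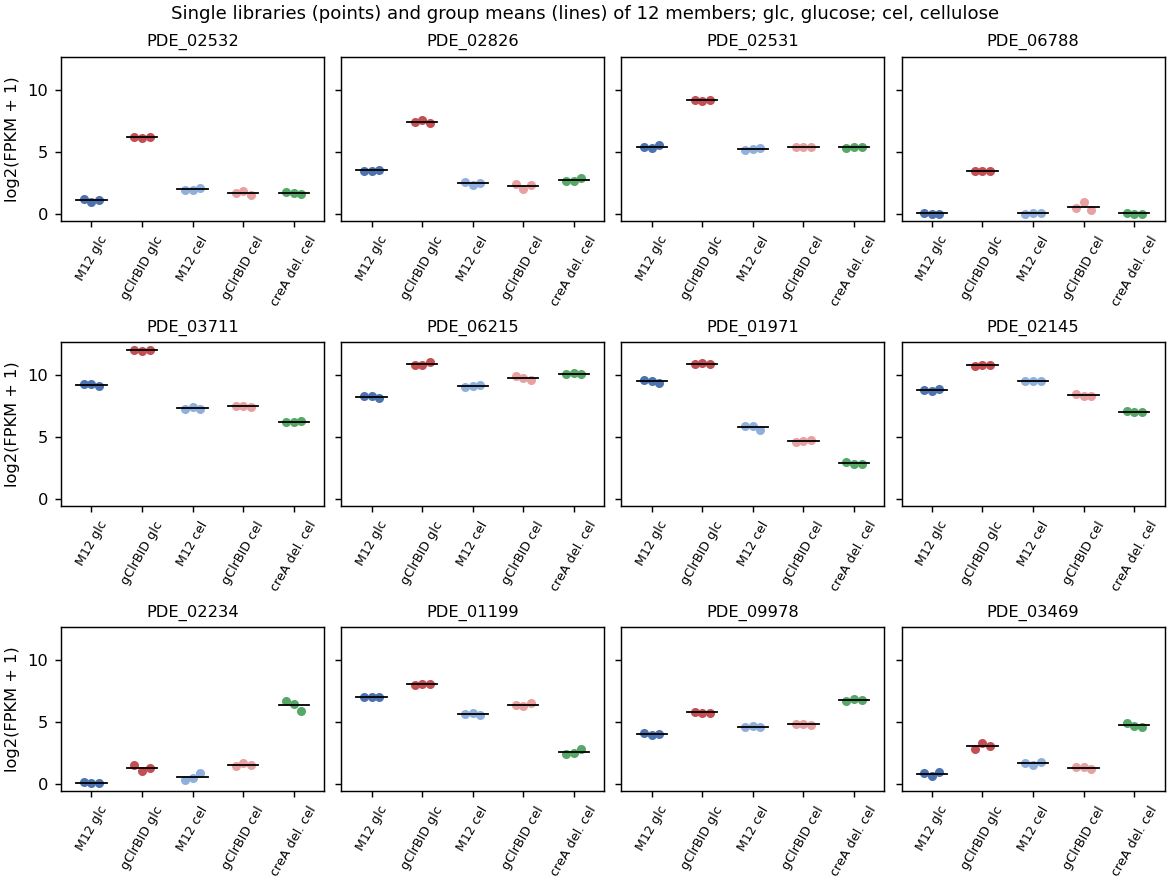
Points give log2(FPKM + 1) of single libraries and lines the group means for 12 members. The first 2 rows show members with the largest rise or the highest level in gClrBID on glucose. The last row shows members that moved in the creA deletion, such as PDE_02234, at 57.1 to 102 FPKM there and under 3 FPKM in every other library.

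The rule did not use a difference with the creA deletion, so the effect of losing creA on cellulose was tested. The M12 libraries on cellulose are shared with the rule, which bounds them on both sides. In limma's fit over all tested genes, 51 of the 180 members (28.3%) were called higher in the deletion at an adjusted p under 0.05, against 21.2% of all tested genes. Lower calls fell on 69 members (38.3%), against 54.2% of all tested genes, and 60 members were not called. Members under 1 FPKM in both strains on cellulose numbered 29 (16.1%), of which 22 were not called, against 3.43% of all tested genes. Such members passed the filter on low values through other groups, so the shares of called genes are not like for like. At a log2 difference of 1 or more, 18 members were called higher against 5.42% of all tested genes, and at -1 or less 17 members (9.44%) were called lower against 14.1%. The deletion libraries lay above all M12 libraries in 49 members (27.2%) and in 22.0% of all tested genes, and below them in 73 members (40.6%) and in 55.8% of all tested genes. The median difference over the members was -0.08 on the log2 scale beside -0.28 over all tested genes.

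These counts moved with the scaling between libraries. Median-of-ratios scaling brought the median of all tested genes from -0.28 to 0.00. It gave 79 members (43.9%) called higher and 46 (25.6%) called lower, beside 36.6% and 35.1% of all tested genes. Of the genes raised both on glucose in gClrBID and on cellulose in M12, 83 (40.9%) were called higher and 95 (46.8%) lower on the deposited scale. Of the 98 genes raised by gClrBID on both carbon sources, 69 (70.4%) were called higher and 17 (17.3%) lower. These lists overlap, since together they cover 249 genes. Both lists were chosen on M12 cellulose libraries that enter the test, and the difference between the lists was not tested. Of the 16 known cellulolytic and regulatory tags, 11 were called higher and 4 lower, and creA, the deleted gene, is 1 of those 4.

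**Figure D4:**
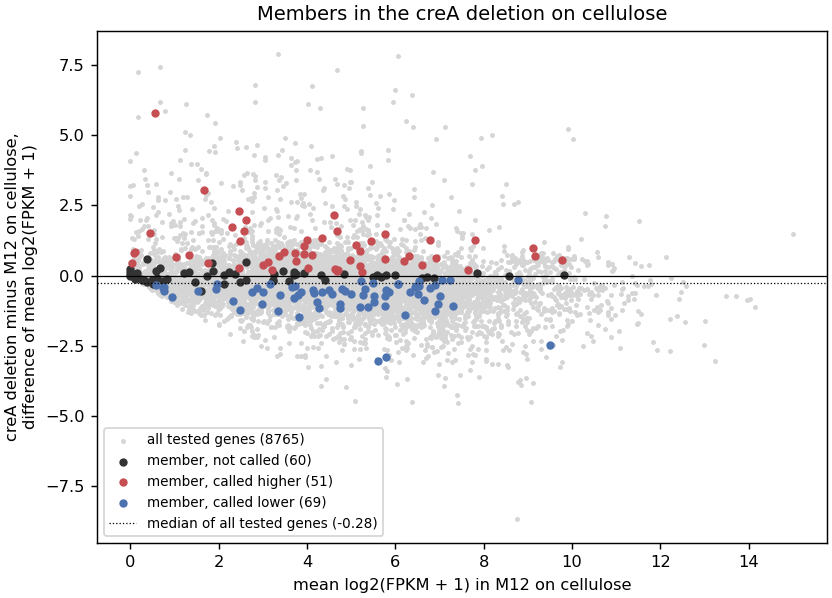
The y axis gives the difference of mean log2(FPKM + 1) between the creA deletion and M12 on cellulose, and the x axis the mean level in M12 on cellulose. Members are black (60 not called), red (51 called higher) or blue (69 called lower) over all tested genes in grey. The dotted line is the median of all tested genes at -0.28.

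The largest rise in the deletion on the log2(FPKM + 1) scale was that of PDE_02234. Its libraries stood at 0.270, 0.416 and 0.795 FPKM in M12 and at 102, 88.7 and 57.1 FPKM in the deletion on cellulose, a log2 difference of 5.78 ± 0.19 (SE) with an adjusted p of 3.7e-13. In gClrBID it reached 1.42 ± 0.409 FPKM on glucose and 1.95 ± 0.267 FPKM on cellulose (SD, n = 3 each), against 0.0552 ± 0.0341 FPKM in M12 on glucose. It is the member nearest to the upper bound on cellulose. PDE_03469 rose from 2.24, 1.94 and 2.42 FPKM to 28.8, 25.1 and 23.4 FPKM, by 3.06 ± 0.14 (SE, adjusted p = 1.1e-11), and stood at 7.30 ± 1.42 FPKM in gClrBID on glucose and at 1.49 ± 0.152 FPKM on cellulose.

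PDE_09978 stood at 23.4, 23.9 and 23.3 FPKM in M12 and 104, 111 and 107 FPKM in the deletion, a rise of 2.14 ± 0.06 (SE, adjusted p = 3.7e-14). Its level in gClrBID on glucose, 53.3 ± 2.53 FPKM (SD, n = 3), was below that in the deletion. PDE_09019 rose by 2.30, PDE_04513 by 1.96 and PDE_04680 by 1.74 on the log2 scale, and their libraries did not overlap with those of M12. In all, 8 members had a higher mean in the creA deletion on cellulose than in gClrBID on glucose.

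The largest fall on the same scale was that of PDE_01199, from 48.2, 51.2 and 45.0 FPKM in M12 to 4.38, 4.53 and 5.96 FPKM in the deletion on cellulose, a log2 difference of -3.05 ± 0.08 (SE, adjusted p = 5.7e-14). In gClrBID on cellulose it was above M12, at 81.7 ± 7.09 FPKM (SD, n = 3). PDE_01971 fell further from its level of 54.4 ± 6.38 FPKM in M12 on cellulose, to 6.33 ± 0.424 FPKM, with a log2 difference of -2.91 ± 0.09 (SE, adjusted p = 9.5e-14). Among all libraries it thus ran from 6.05 FPKM, in the deletion on cellulose, to 1966 FPKM, in gClrBID on glucose.

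PDE_02145 stood at 723, 729.8 and 725 FPKM in M12, at 352, 315 and 307 FPKM in gClrBID and at 135, 129 and 125 FPKM in the deletion on cellulose. The groups did not overlap, and the deletion differed from M12 by -2.47 ± 0.05 on the log2 scale (SE, adjusted p = 2.5e-15). On glucose the same gene was at 441 ± 18.8 FPKM in M12 and 1739 ± 26.7 FPKM in gClrBID (SD, n = 3 each). PDE_08930, PDE_09586 and PDE_04779 fell by 1.47, 1.39 and 1.28. PDE_09586 was at 73.2 ± 2.92 and 75.7 ± 4.71 FPKM in M12 and gClrBID on cellulose and at 27.3 ± 0.947 FPKM in the deletion, while gClrBID on glucose reached 419.7 ± 24.2 FPKM (SD, n = 3 each).

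Abundant members took different courses in the deletion. PDE_05694 stood at 907 ± 22.6 FPKM in M12 and 909 ± 38.0 FPKM in the deletion (adjusted p = 0.96), and PDE_00886 at 383 ± 14.4 and 382 ± 28.0 FPKM (adjusted p = 0.95, SD, n = 3 each). Both were called higher after median-of-ratios scaling. PDE_06215 rose by 0.99 ± 0.07 and PDE_03821 by 0.70 ± 0.06 (SE), whereas PDE_03711 fell by 1.08 ± 0.05 (SE, adjusted p = 3.5e-11). PDE_00177, the most abundant member in gClrBID and in the deletion on cellulose, stood at 831, 829 and 962 FPKM in M12, 1274, 1392 and 1370.0 in gClrBID and 1231, 1325 and 1259 in the deletion. The deletion libraries of PDE_00177 lay above all M12 libraries, by 0.54 ± 0.07 (SE, adjusted p = 1.9e-06). Members that fell by 1 or more on cellulose in M12 were called higher in the deletion in 10 of 25 cases and lower in 8, and the 155 others in 41 and 61 cases. The M12 libraries on cellulose that set these classes also enter the test, so nothing is read from these counts.

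Coding length was not used by the rule and is given as a description, with no test. The members' median coding length, worked back from the FPKM steps, was 1069.5 bases against 1212 bases over all tested genes. Genes shorter than 500 bases made up 35 members (19.4%) and 14.6% of all tested genes. In such genes 1 fragment is worth more FPKM, and 25 members had fewer than 10 fragments in every M12 library on glucose.

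Members were also placed by their tag numbers, as a description with no test. The next tag number is here that just below or just above a gene's own. Another member carried the next tag number for 44 of the 180 members (24.4%), whereas 271 of the 8585 other tested genes (3.16%) had a member at the next tag number. Whether neighbours in tag number are neighbours on the chromosome was not checked, since no genome of the strain was used here, and the strand setting of the counting is not given. Reads shared between overlapping or adjoining genes could therefore not be told apart. With gaps of at most 1 tag there were 5 runs of 3 members, 20 pairs and 125 members on their own.

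The first run, PDE_02174 to PDE_02176, rose on glucose in gClrBID by 2.06, 1.90 and 1.27 on the log2 scale. Its members also rose in the creA deletion on cellulose: PDE_02174 from 24.0, 25.7 and 24.1 to 74.7, 74.4 and 76.5 FPKM, by 1.57 ± 0.07 (SE, adjusted p = 9.2e-12). PDE_02175 rose by 1.21 ± 0.14 (SE, adjusted p = 1.1e-06) and PDE_02176 by 1.35 ± 0.07 (SE, adjusted p = 2.8e-11). For PDE_02174 and PDE_02176 the deletion held the highest mean of the 5 groups. PDE_02172, near the run, went from 8.97 ± 0.629 to 69.6 ± 5.25 FPKM on glucose (SD, n = 3 each) and is not a member.

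Another run held PDE_03517, PDE_03518 and PDE_03520. PDE_03518 stood at 75.5, 70.3 and 79.2 FPKM in M12 and 153, 164 and 152 FPKM in gClrBID on glucose, and PDE_03520 at 72.7 ± 5.51 and 246 ± 7.33 FPKM (SD, n = 3 each). On cellulose both were lower in gClrBID and in the deletion than in M12. PDE_03520 was at 52.1, 50.7 and 56.7 FPKM in M12, at 27.1, 25.6 and 27.3 in gClrBID and at 24.5 ± 0.661 in the deletion, which differed from M12 by -1.09 ± 0.06 (SE, adjusted p = 1.1e-10). PDE_03518 fell by 1.11 ± 0.07 in the deletion (SE, adjusted p = 9.3e-10). These comparisons share the M12 libraries. PDE_03517 had at most 4 fragments in any M12 library on glucose.

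In the run PDE_06786 to PDE_06788 the rise on glucose was 1.14, 2.45 and 3.44, largest where the level in M12 was lowest. PDE_06787 went from 54.1, 49.9 and 54.8 to 301, 293 and 289 FPKM, and PDE_06786 from 124 ± 10.5 to 273 ± 15.4 FPKM (SD, n = 3 each). In the deletion PDE_06786 was called higher (0.20), PDE_06787 lower (-0.26, turned to 0.06 and not called after median-of-ratios scaling) and PDE_06788 was not called. The runs of PDE_02825, PDE_02826 and PDE_02828 and of PDE_05833, PDE_05834 and PDE_05836 each joined members at 10.3 FPKM or less in M12 on glucose to a more abundant one, PDE_02828 at 65.9 FPKM and PDE_05836 at 84.0 FPKM. PDE_02827, between members, stood at 29.4 FPKM in M12 and 31.1 FPKM in gClrBID on glucose.

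**Figure D5:**
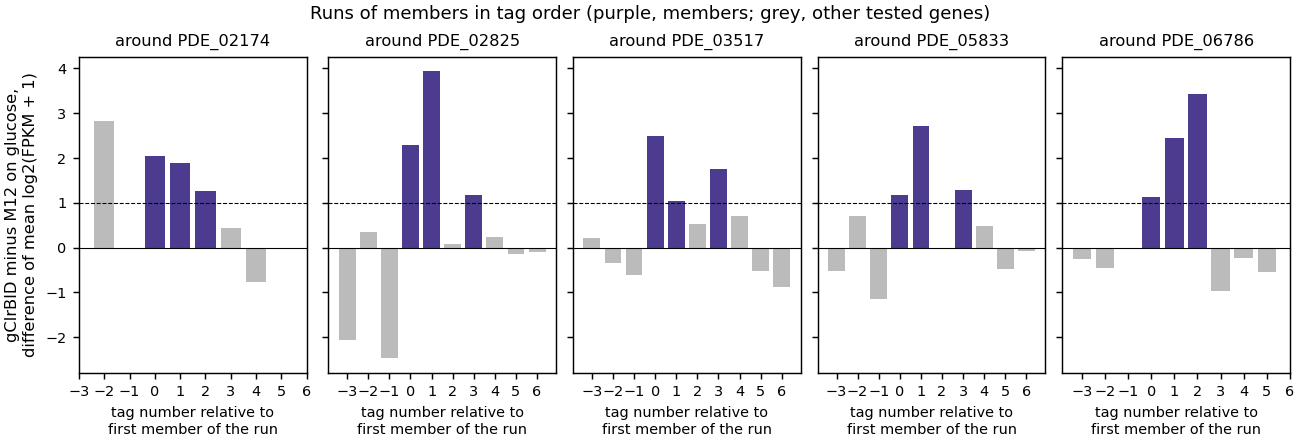
Bars give the difference of mean log2(FPKM + 1) between gClrBID and M12 on glucose for tested genes around the 5 runs of members, by tag number relative to the first member of the run. Members are purple, other tested genes are grey, and the dashed line marks the threshold of 1. PDE_02172, in the first panel, is a grey bar above the threshold at 2.82.

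Some members lay beside genes that gClrBID raised far more. A gene raised by 3 or more on the log2 scale on glucose carried the next tag number for 15 members (8.33%) and for 1.82% of the other tested genes. In 7 cases that gene was also raised by cellulose in M12. These counts were chosen after the values were seen. PDE_07125, next to the cellobiohydrolase gene cel6A (PDE_07124), stood at 10.4, 10.4 and 9.42 FPKM in M12 and 21.3, 24.7 and 22.9 FPKM in gClrBID on glucose, while cel6A went from 1.35 to 12568 FPKM. In the creA deletion cel6A stood at 15004 FPKM and PDE_07125 at 19.1 ± 2.23 FPKM, against 18.9 ± 2.21 FPKM in M12 on cellulose (SD, n = 3 each, adjusted p = 0.89).

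PDE_07930, next to the endoglucanase gene cel7B (PDE_07929), went from 20.7 ± 2.70 to 49.1 ± 2.56 FPKM on glucose, while cel7B went from 4.39 to 2286 FPKM. In the deletion on cellulose PDE_07930 was lower than in M12, at 10.7 ± 0.150 against 16.8 ± 0.268 FPKM (SD, n = 3 each). There cel7B stood at 3892 FPKM, against 204 in M12. In gClrBID on cellulose both were higher than in M12, PDE_07930 at 32.3 FPKM and cel7B at 1703 FPKM. Whether the level of a neighbour bears on that of a member was not tested. PDE_03166 lay next to PDE_03167, itself beside the tag of creA. PDE_03167 went from 0.984 to 96.2 FPKM and PDE_03166 from 9.36 ± 0.777 to 30.1 ± 1.78 FPKM on glucose. On cellulose PDE_03167 was at 17.3 FPKM in M12 and at 57.9 FPKM in the creA deletion. In the creA deletion on cellulose PDE_03166 stood at 7.27 ± 1.72 FPKM, against 8.42 ± 0.830 FPKM in M12 (SD, n = 3 each, adjusted p = 0.21).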

How the data were processed

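The authors deposited 1 table of FPKM values with a column per library, assigned to its sample by title; 0 value columns were left out. The tools named, per the submitters' processing notes and without roles, are DESeq2, featureCounts 1.5.0-p1, HISAT2 2.0.0 and CASAVA 1.8. The genome build, annotation and strand setting are not given in the sources used here. Whole fragments, lengths (multiples of 3, read as coding length) and totals were worked back from the FPKM steps for all 9789 genes above 0, within 5e-05 FPKM. Summed fragments differed from these totals by at most 3 per library.

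The creA deletion was compared with M12 on cellulose with limma 3.58.1 in R 4.3.3 on log2(FPKM + 1), with 1 mean per group over all 15 libraries, a variance trend and Benjamini-Hochberg adjustment over 8765 genes. The added 1 shrinks the differences of low genes. Every adjusted p comes from this fit. The fit was also run on simulated fragments with equal numbers of genes raised and lowered. That simulation had no shift of the median over all genes, so it does not bear on the shift seen here. Members and lists were chosen with earlier results of these data known. Named members were those with the largest rise (8), highest level (8), strongest response to the creA deletion (6 each way), in runs of tags, next to a threshold, or among the top 3 of another group; others were chosen after their values were seen. Alternatives were the pseudocount, filter, scaling, thresholds, voom weights, a replicate block and each library left out.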

Additional observations from a re-analysis of the deposited data

How the results depend on the processing

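The number of genes meeting the rule ranged from 174 to 189 with each library left out in turn, and 149 of the 180 members met it in all 15 such settings. It was 280 after median-of-ratios scaling, 79 with a rise of at least 1.5 on glucose and 15 with the other differences under 0. Members with a member at the next tag number then numbered 66, 14 and 0, and 38 to 44 with a library left out. With a pseudocount of 0.1 the rule found 173 genes, 150 of them members. In the creA deletion, median-of-ratios scaling gave 79 members called higher, and 3208 of all tested genes higher and 3078 lower. The median over the members was -0.08, from -0.0894 to -0.0481 with a library left out (the upper end without M12 cellulose replicate 3), -0.10 with a pseudocount of 0.1 or rescaled to TPM, -0.11 with voom weights and 0.14 after median-of-ratios scaling; the SD over deletion libraries was 0.02. That scaling turned PDE_00886 to 0.32 and PDE_06787 to 0.0585. Of the 44 members named by the stated rule, 39 kept direction and call under it. Calls of PDE_02531 (0.13, adjusted p = 0.043 in limma) and PDE_02826 (0.28, adjusted p = 0.032) were lost with voom weights, after rescaling to TPM or without some libraries. The replicate block gave 51 members higher and 68 lower. Same-numbered libraries did not deviate together (r = -0.02, 0.09 and -0.05 between M12 and the deletion on cellulose, over genes). Depth limits members with few fragments.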
